A study of Mus musculus with 4 samples.

Results

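The 40 genes described here encode the transport machinery of the primary cilium and the gate at its base. They were chosen by name and include 11 genes of intraflagellar transport complex B, 3 of complex A, 7 of the BBSome, 2 BBS chaperonin-like genes, 4 motor genes, 11 transition zone genes and the exocyst gene Exoc5. All 40 were found among the 45706 genes of the count table, and all 40 passed the filter on low counts that left 16570 genes to test. RNA came from the heart outflow tract, where aorta and pulmonary artery arise, of C57BL/6 mouse embryos at embryonic day 12.5. Wild-type (WT) embryos were set against Sox17eKO embryos, which had lost Sox17, an endothelial transcription factor gene, in aortic root endothelium through Cre driven by an enhancer of Nfatc1. Each genotype had 2 libraries, each from 10 pooled hearts, and the series sought genes that SOX17 controls. The deletion touched part of the endothelium, whereas each library held all cells of the tissue, so a change limited to those cells would be diluted, and in such bulk RNA fewer cells of a type and less RNA per cell cannot be told apart.

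The primary cilium is a single microtubule-based projection through which cells of the embryo, endothelial and mesenchymal cells among them, sense hedgehog and other signals. Kinesin-2 carries trains of intraflagellar transport (IFT) complexes outward with complex B, and cytoplasmic dynein-2 carries them back with complex A, while the BBSome is a coat-like adaptor that moves membrane proteins along the trains. The transition zone at the cilium's base decides which proteins enter, and the exocyst tethers vesicles that deliver membrane to the cilium. In mice, loss of several cilium genes causes outflow tract and aortic valve malformations, and cilia loss has been linked to bicuspid aortic valve.

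Of the 40 genes, 1 rose in Sox17eKO and none fell (quasi-likelihood test of edgeR, p-values adjusted by Benjamini-Hochberg over all genes tested). This gene was Dync2h1, the heavy chain of the retrograde motor dynein-2. The called share was 2.50% of the 40 genes, against 5.35% of all genes tested (4.13% higher and 1.22% lower in Sox17eKO), so the cilium genes were not called more often than the table as a whole. At an unadjusted p under 0.05 there were 6 of 40, of which 5 were higher and 1 lower, against 20.9% of all genes. DESeq2 and limma-voom also called only Dync2h1 and no lower gene, although DESeq2's own filter gave an adjusted p to only 8 of the 40. The 39 other genes had log2 fold changes (Sox17eKO over WT) from -0.23 to 0.41, and the median over all 40 was 0.08, beside -0.01 over all genes tested. The fitted level was above WT for 25 of the 40 genes, beside 48.2% of all genes. For 33 of the 40 genes the 95% interval of the change lay wholly within 1.5-fold in either direction, as it did for 64.2% of all genes. The 2 WT pools and the 2 Sox17eKO pools did not overlap for 20 of the 40 genes, 13 with Sox17eKO above (32.5%) and 7 below (17.5%). The total was close to the 52.8% of all genes whose pools did not overlap. The split was less even than that of all genes (26.5% above and 26.2% below), and this difference was not tested.

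**Figure D1:**
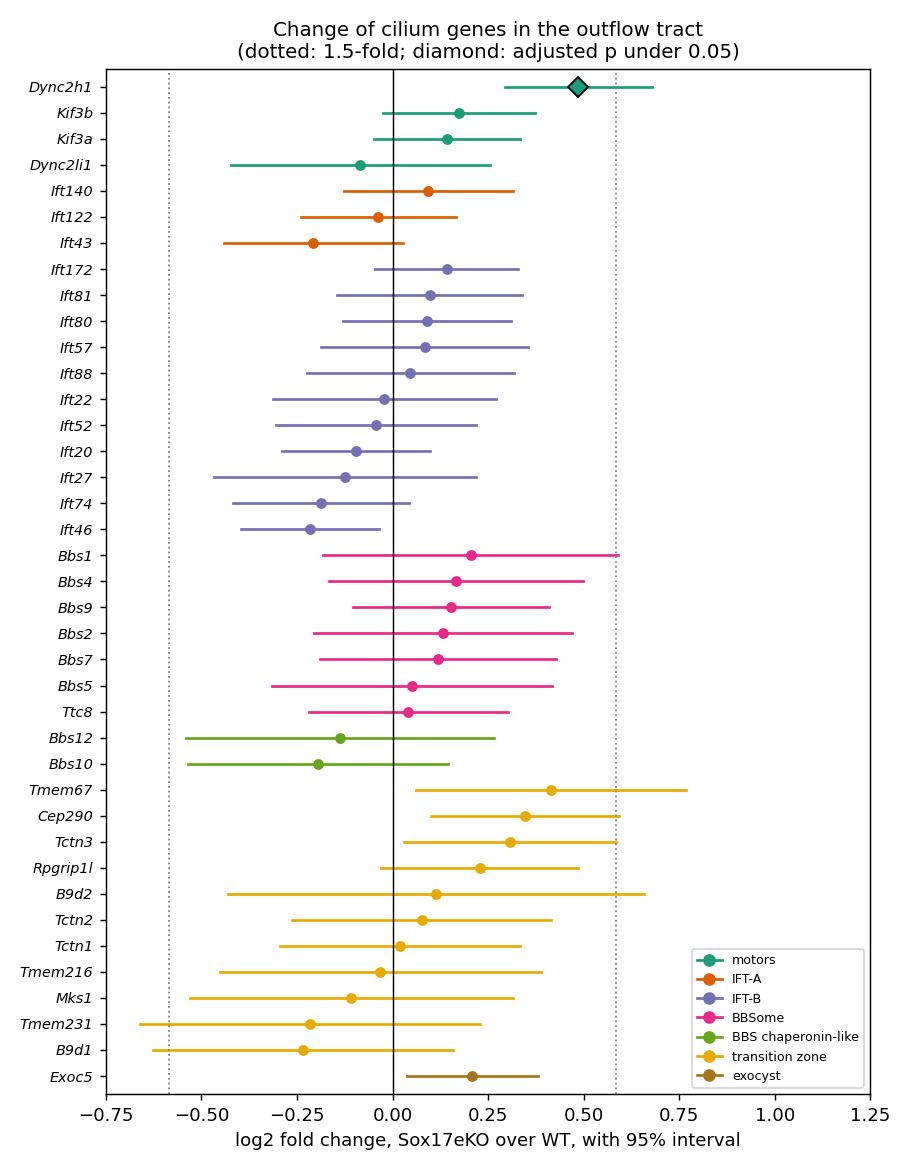
Log2 fold change of the cilium genes by role, Sox17eKO over WT (horizontal axis), with its 95% interval from the edgeR fit. The diamond marks Dync2h1 (0.49), the 1 gene past the adjusted p threshold, and the dotted lines mark 1.5-fold, within which most intervals lie.

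Sox17, read first as the check of the labels, stood at 6.05 and 6.83 CPM (a gene's reads relative to the library's reads in tested genes, scaled by TMM) in the WT pools and 2.76 and 2.82 CPM in the Sox17eKO pools. It fell by 1.19 on the log2 scale (adjusted p = 0.00574 in edgeR), and by 1.11 without WT replicate 2, where it no longer passed (adjusted p = 0.0519 in edgeR). Reads in genes numbered 8113463 to 21883956 per library, and the 40 cilium genes had 24 to 1946 reads each per library. Reads that HTSeq assigned to no gene made up 20.4% and 22.2% in WT and 29.5% and 34.1% in Sox17eKO. All 10 endothelial, 10 cardiomyocyte, 7 smooth muscle and 9 cushion mesenchyme markers looked up as a check of the tissue were detected and tested, and 5 lung and foregut markers summed to 2.48 to 4.41 CPM per library, with Nkx2-1 at 0 reads. The labels name no litter or dissection day, and p-values measure only the spread between these pools.

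Genes of cilium assembly are known targets of RFX transcription factors, which bind a paired inverted motif called the X-box, and SOX factors bind a short core motif. Promoter windows of 300 bp from RefSeq (GRCm38.p6, 250 before to 50 after the start site) were searched on both strands. A window was found for 35 of the 40 genes. An X-box, searched as GTTNCC and GGNAAC with 1, 2 or 3 bases of any kind between them, was present for 5 of the 35 genes (14.3%), beside 0.903% of the 27025 genes in the table. The matches of Bbs7, Mks1, Tctn1 and Tctn3 are printed 5′ to 3′ on the gene's strand, with the motif in capitals, because they show what an X-box match in these genes looks like.
Bbs7: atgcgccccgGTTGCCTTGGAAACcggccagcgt
Mks1: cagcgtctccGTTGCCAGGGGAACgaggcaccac
Tctn1: ggctgtgactGTTGCCCGGGCAAC
Tctn3: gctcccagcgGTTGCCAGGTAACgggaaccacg

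These stretches lie at chr3:36613487-36613520 (minus strand, Bbs7), chr11:87853181-87853214 (plus, Mks1), chr5:122264411-122264434 (minus, Tctn1, where the searched window ends with the motif) and chr19:40612349-40612381 (minus, Tctn3). The single half-site GTTGCC, which all of these matches contain, was present for 19 of the 35 genes (54.3%), beside 14.1% of all genes. The 5 genes with a full X-box had a median log2 fold change of 0.08 and the 30 without had 0.06. The 19 genes with a half-site had a median of 0.09 and the 16 without had -0.03. The SOX core ACAAT was present for 7 of the 35 genes (20.0%), namely Ift27, Ift52, Ift172, Bbs1, Ttc8, Kif3a and Dync2h1, beside 34.4% of all genes. The median log2 fold change was 0.14 for these 7 and 0.06 for the 28 others. A match of letters is a description and does not show binding. The searched windows are short, so these shares say nothing of distal elements.

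The motor genes held the 1 gene that rose. Dync2h1 (ENSMUSG00000047193, GRCm38 chromosome 9, start 6928503 and end 7184446, minus strand, 16348 bp of exons) stood at 63.3 and 54.5 CPM in the WT pools and 88.7 and 77.5 CPM in the Sox17eKO pools. Both Sox17eKO pools lay above both WT pools, and the gap between genotypes was larger than the gap within either. The means were 58.9 ± 6.20 CPM in WT and 83.1 ± 7.93 CPM in Sox17eKO (SD, n = 2 pools each), a fold of 1.40. On the log2 scale the change was 0.49 (standard error 0.09, 95% interval 0.29 to 0.68, edgeR adjusted p = 0.00456). The underlying reads numbered 816 and 431 in WT and 1286 and 1703 in Sox17eKO. The call was lost without WT replicate 2, the shallowest library, where the log2 fold change was 0.39 (edgeR adjusted p = 0.0723), and it held without each other library in turn (log2 fold changes 0.39 to 0.60). It was also lost with a trend on gene length removed, where the log2 fold change was 0.21 (edgeR adjusted p = 0.254). Its RefSeq promoter window, chr9:7177009-7177308 on the minus strand, is shown because Dync2h1 is the 1 gene past the threshold. The capitals mark 1 SOX core at -153 from the start site, read on the reverse strand (ATTGT), and 1 X-box half-site at 36, also reversed (GGCAAC). This RefSeq start lies inside the outermost GENCODE start of the gene.
Dync2h1: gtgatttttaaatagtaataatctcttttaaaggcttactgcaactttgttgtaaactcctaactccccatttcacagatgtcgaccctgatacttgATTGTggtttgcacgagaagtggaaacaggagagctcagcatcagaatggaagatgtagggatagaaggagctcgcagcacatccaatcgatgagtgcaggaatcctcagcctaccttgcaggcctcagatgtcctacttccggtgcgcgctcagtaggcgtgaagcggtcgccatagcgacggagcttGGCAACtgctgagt

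Dync2li1, the light intermediate chain that binds the DYNC2H1 chain in the same motor, was at 9.23 and 9.49 CPM in WT and 9.45 and 8.28 CPM in Sox17eKO. Its pools overlapped, and its log2 fold change was -0.08 (95% interval -0.42 to 0.25). The subunits of the anterograde motor kinesin-2 did not pass the test either. Kif3a was at 43.4 and 43.4 CPM in WT and 45.6 and 50.1 CPM in Sox17eKO (log2 fold change 0.14, 95% interval -0.05 to 0.33). Kif3b was at 38.5 and 36.6 CPM in WT and 44.0 and 41.0 CPM in Sox17eKO (log2 fold change 0.17, 95% interval -0.03 to 0.37). For both kinesin genes the Sox17eKO pools lay above the WT pools without passing. Whether Dync2h1 changed more than its partner or the kinesin genes was not tested.

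The 2 transport complexes showed no called gene among 14, beside 5.35% called of all genes tested. In complex B, 5 of 11 genes had a fitted level above WT and 6 below, with a median log2 fold change of -0.02 and a range from -0.22 to 0.14, and every one of the 11 intervals lay within 1.5-fold. This split was not stable. Without Sox17eKO replicate 1 the fitted level was above WT for 2 of the 11 genes, with the length trend removed for 7, and with library size scaling only for 6, where Ift22 turned from -0.02 to 0.006. Ift46, a core complex B subunit, had the largest difference of these. It was at 53.1 and 54.5 CPM in WT and 45.1 and 47.4 CPM in Sox17eKO. Both Sox17eKO pools lay below both WT pools, and the log2 fold change of -0.22 (standard error 0.09, 95% interval -0.40 to -0.03) did not pass (edgeR adjusted p = 0.153). Ift74 and Ift81, whose products pair in the core of complex B, had log2 fold changes of -0.19 (95% interval -0.42 to 0.04) and 0.10 (95% interval -0.14 to 0.34). Ift88, a subunit needed to build cilia, was at 17.7 and 17.7 CPM in WT and 20.0 and 16.7 CPM in Sox17eKO, so its pools overlapped (log2 fold change 0.05, 95% interval -0.22 to 0.32). Ift172, the largest peripheral subunit, had 0.14 (95% interval -0.05 to 0.33).

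In complex A, Ift43, a small peripheral subunit, was at 28.9 and 34.2 CPM in WT and 27.8 and 26.5 CPM in Sox17eKO. The pools did not overlap, but the means differed by less than the WT pools did (log2 fold change -0.21, 95% interval -0.44 to 0.03, edgeR adjusted p = 0.302). The core subunits Ift122 and Ift140 had log2 fold changes of -0.04 (95% interval -0.24 to 0.17) and 0.09 (95% interval -0.13 to 0.32), with overlapping pools.

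None of the 7 BBSome genes passed (edgeR adjusted p from 0.510 to 0.905), with 0 of 7 at an unadjusted p under 0.05, beside 20.9% of all genes. All 7 had a fitted level above WT, by log2 fold changes of 0.04 to 0.20. The largest was that of Bbs1, which contacts the membrane GTPase ARL6, at 7.99 and 6.83 CPM in WT and 7.38 and 9.69 CPM in Sox17eKO, with overlapping pools (log2 fold change 0.20, 95% interval -0.18 to 0.59). The interval of Bbs1 was the 1 of the 7 that reached past 1.5-fold. The common direction held under the other scalings, but Bbs1, Bbs2, Bbs5 and Bbs7 each turned below 0 when a library was left out, and Bbs5 and Ttc8 did so with the GC trend removed. The pools did not overlap for Bbs9 (0.15) and Ttc8 (0.04), where Sox17eKO was above. Bbs10 and Bbs12, chaperonin-like factors that help assemble the BBSome, had log2 fold changes in the other direction, -0.19 and -0.14, and did not pass. Bbs10 was at 10.2 and 9.74 CPM in WT and 9.58 and 8.01 CPM in Sox17eKO, and its means differed by less than its Sox17eKO pools did.

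Among the 11 transition zone genes, 7 had a fitted level above WT and 4 below, from -0.23 to 0.41. None passed after adjustment, and 3 had an unadjusted p under 0.05 in edgeR, beside 20.9% of all genes. Tmem67, a membrane protein gene of the Meckel syndrome module, was at 10.7 and 7.21 CPM in WT and 11.7 and 12.7 CPM in Sox17eKO. Both Sox17eKO pools were above both WT pools, but WT replicate 2 stood well below WT replicate 1, and the log2 fold change of 0.41 (95% interval 0.06 to 0.77) did not pass (edgeR adjusted p = 0.159). Leaving out WT replicate 1 gave 0.77 (edgeR adjusted p = 0.0266), and leaving out WT replicate 2 gave 0.20. Cep290, the large coiled-coil protein that links the membrane to the microtubules in the transition zone, was at 29.6 and 23.3 CPM in WT and 32.9 and 34.9 CPM in Sox17eKO (log2 fold change 0.35, standard error 0.12, edgeR adjusted p = 0.0894). It passed without WT replicate 1 (log2 fold change 0.54, edgeR adjusted p = 0.0172) and was at 0.20 without WT replicate 2, so both genes turned on which WT pool was kept. Tctn3, a tectonic family gene, was at 13.8 and 14.2 CPM in WT and 18.7 and 16.1 CPM in Sox17eKO (log2 fold change 0.31, 95% interval 0.03 to 0.58, edgeR adjusted p = 0.185). The other tectonic genes, Tctn1 and Tctn2, had 0.02 and 0.08 with overlapping pools. Rpgrip1l, a scaffold of the transition zone, had 0.23 (95% interval -0.03 to 0.49).

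The remaining transition zone genes were low in reads and correspondingly imprecise. B9d2 had 24 to 77 reads per library and a 95% interval of -0.43 to 0.66, the widest among the 40 genes, which takes in a change of 1.5-fold upward. B9d1, its partner in the B9 complex, had -0.23 (95% interval -0.63 to 0.16), Tmem231 had -0.22 (-0.66 to 0.23), Mks1 had -0.11 (-0.53 to 0.31) and Tmem216 had -0.03 (-0.45 to 0.39). None of the 5 passed.

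Exoc5, the exocyst subunit also called Sec10, was at 82.6 and 78.7 CPM in WT and 98.4 and 88.5 CPM in Sox17eKO. Both Sox17eKO pools lay above both WT pools, and the log2 fold change of 0.21 (95% interval 0.04 to 0.38) did not pass (edgeR adjusted p = 0.142). Parts of the exons of 9 of the 40 genes, Cep290, Tmem67, Exoc5 and Tctn1 among them, overlap an exon of another gene, on the opposite strand except for Gm43439 at Bbs12. How the counting treated strand is not known, so to which gene reads in those parts were counted is uncertain.

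**Figure D2:**
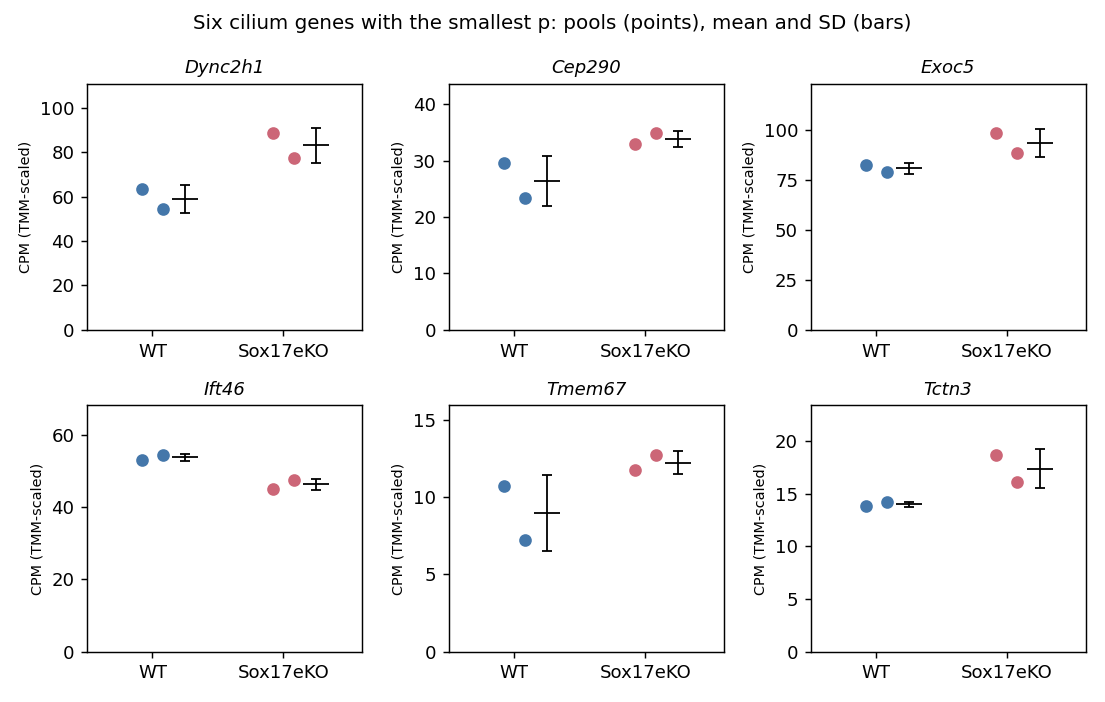
CPM (vertical axes, from 0) of the 6 cilium genes with the smallest p in each WT and Sox17eKO pool (points), with the mean and SD of the 2 pools beside them. The pools of the 2 genotypes do not overlap for any of the 6. Genes picked by small p are likely to show this, and 52.8% of all genes tested show it too. The WT pools of Tmem67 (10.7 and 7.21) are farther apart than its Sox17eKO pools.

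Levels were compared between genes as CPM per kb of exonic length, averaged over the 4 pools. They ranged from 1.04 for Bbs1 to 29.3 for Ift20, with a median of 3.71, beside 5.13 for all genes tested. Ift20, the complex B subunit that also sits at the Golgi, was highest, at 30.3 CPM per kb in WT and 28.2 in Sox17eKO. Its pools were at 43.7 and 48.6 CPM in WT and 43.4 and 42.7 CPM in Sox17eKO, a difference smaller than the gap between the WT pools. Ift43 (17.8 CPM per kb) and Kif3a (12.7 CPM per kb) followed, and these first 3 were separated from each other by more than the spread of their pools. The median was 6.03 CPM per kb for the complex B genes (2.92 to 29.3) and 5.99 for the 4 motor genes, and their order turned with genotype (6.14 and 5.84 in WT, 5.92 and 6.31 in Sox17eKO). It was lower for the 7 BBSome genes (2.90) and the 11 transition zone genes (1.59, 1.23 to 4.79). From Ift57 (5.35 CPM per kb) down to Bbs1, each gene overlapped in its pools with the next in the order. Only 10 of the 40 genes were above the median of all genes tested on this scale, and none of them was a transition zone or BBSome gene. Exonic length joins all annotated exons, so a gene with long alternative ends, such as Exoc5 with 17988 bp, is given a low level per kb.

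**Figure D3:**
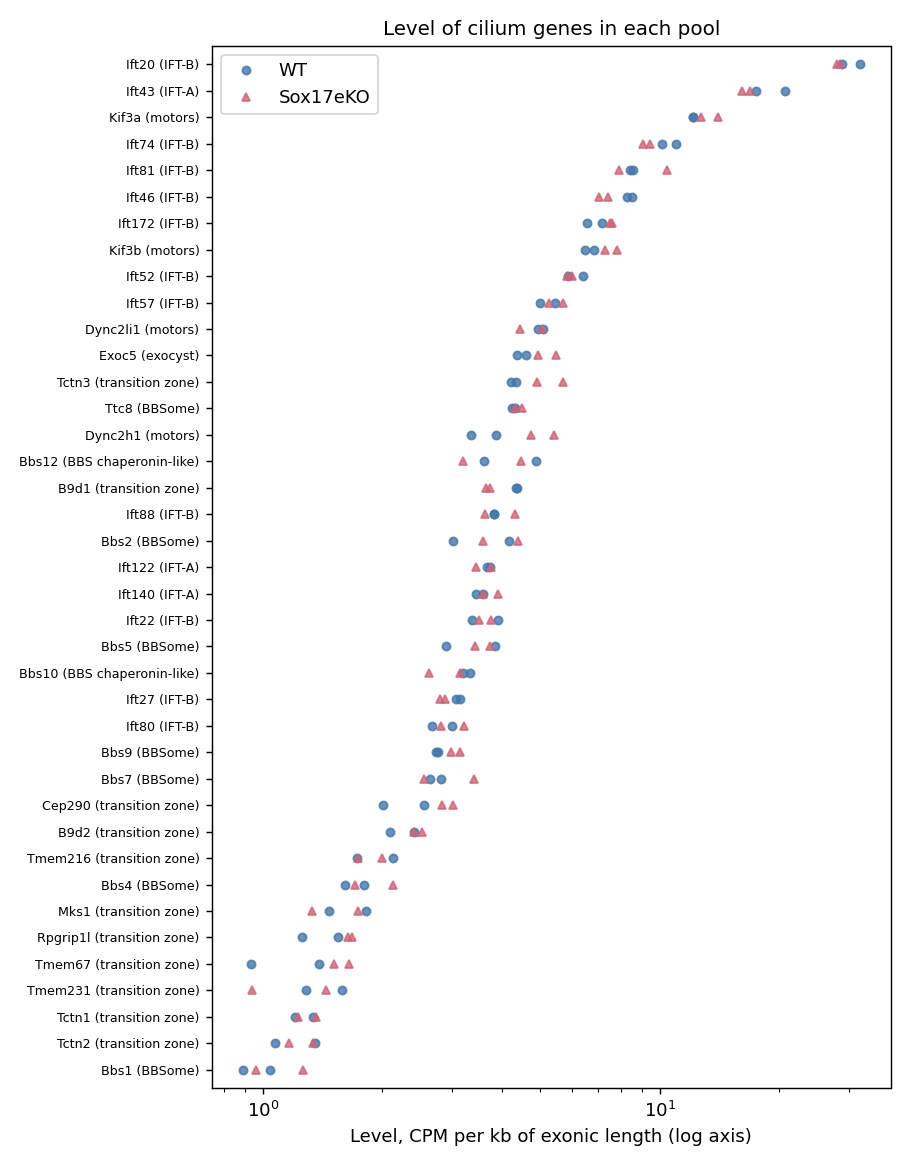
Level of the cilium genes in each pool as CPM per kb of exonic length (horizontal log axis), ordered by the mean over 4 pools, with WT as circles and Sox17eKO as triangles. Ift20 at 29.3 is highest, followed by Ift43 and Kif3a, and transition zone genes make up most of the low end.

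Differences between the genotypes ran with exonic length among the cilium genes. Across the 40 genes, which share the same 4 libraries, log2 fold change and log2 exonic length had a Pearson r of 0.59 (Spearman rho 0.56), and r was 0.53 over the 39 genes other than Dync2h1. Over all 13361 protein-coding genes tested r was 0.37 (Spearman rho 0.46), so the relation was not limited to cilium genes. The 13 shortest cilium genes (1454 to 3273 bp) had a median log2 fold change of -0.10, and protein-coding genes of that length had -0.11. The 14 of middle length (3281 to 6243 bp) had 0.11, beside -0.02. The 13 longest (6416 to 17988 bp) had 0.14, beside 0.11. Of protein-coding genes in this last range, 8.83% were called higher and 0.105% lower, and of the 13 cilium genes 1 was called (7.69%). Dync2h1 fell in the longest of 20 equal bins of protein-coding genes, whose median log2 fold change was 0.26 with quartiles of 0.14 and 0.38, and its own 0.49 lay above the upper quartile. Tctn3 (3273 bp) and Ift46 (6416 bp) lay outside the quartiles of their bins on opposite sides. Other cilium genes did so too, such as Kif3a (0.14) above and Tmem231 (-0.22) below. By construction, quartiles leave many genes outside.

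**Figure D4:**
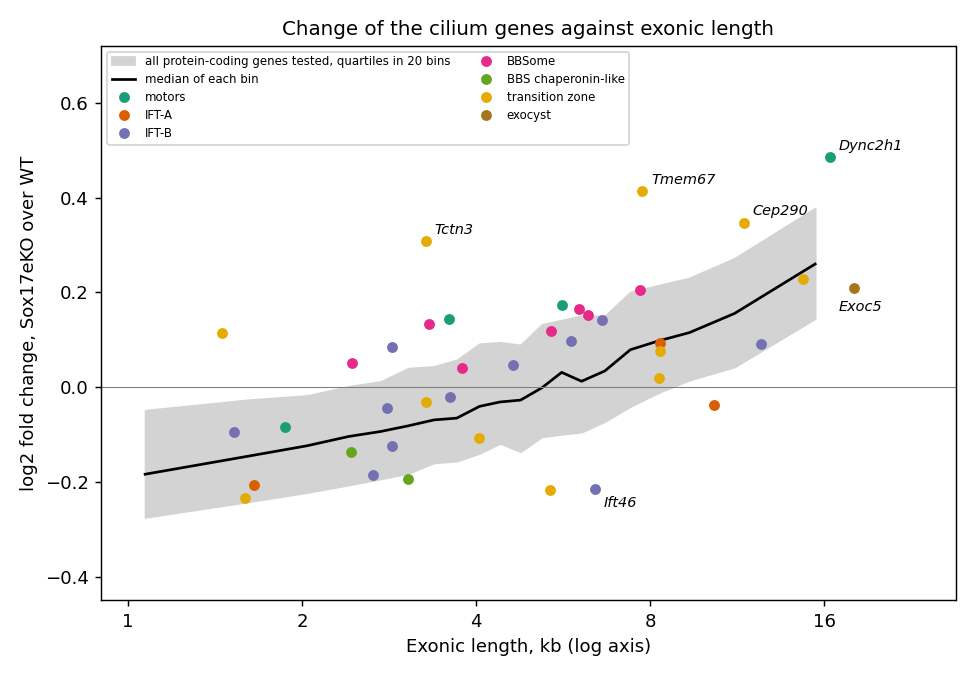
Log2 fold change, Sox17eKO over WT, against exonic length in kb (log axis) for the cilium genes, coloured by role, over the median (line) and quartiles (grey) of all protein-coding genes tested in 20 bins of length. Of the genes labelled by name, which have the smallest p, Tmem67, Tctn3 and Cep290 lie above the grey band and Ift46 (-0.22) below it. The band ends at the median length of the last bin (15439 bp), short of Dync2h1 (0.49) and Exoc5. Dync2h1 lies above the upper quartile of that bin (0.38). Genes without a label lie outside the band too, such as Kif3a above and Tmem231 below.

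With a smooth trend on exonic length and gene span removed from each library, none of the 39 protein-coding cilium genes was called by edgeR. Tctn2 carries another class in the annotation. Few genes of any kind were called in this fit, 151 of the 13361 protein-coding genes tested. Of the 39 cilium genes, 3 had an unadjusted p under 0.05. The log2 fold change of Dync2h1 was then 0.21 (standard error 0.08, edgeR adjusted p = 0.254), and that of Cep290 0.18 (edgeR adjusted p = 0.485). Exoc5 moved from 0.21 to -0.03. The values of Tctn3 (0.36, edgeR adjusted p = 0.210) and Ift46 (-0.26, edgeR adjusted p = 0.158) were slightly farther from 0 than before and did not pass. The median over the cilium genes was then 0.02. Their r with log2 length was 0.03, which follows largely from the removal itself. This step also takes out any difference between the genotypes that itself runs with length. The share of reads assigned to no gene was higher in both Sox17eKO pools than in both WT pools. The relation with length reported above was read from the comparison of genotypes, while the trend removed here was fitted in each library. The part of the unassigned reads or of the length trend in the Dync2h1 call was not tested beyond this fit.

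**Figure D5:**
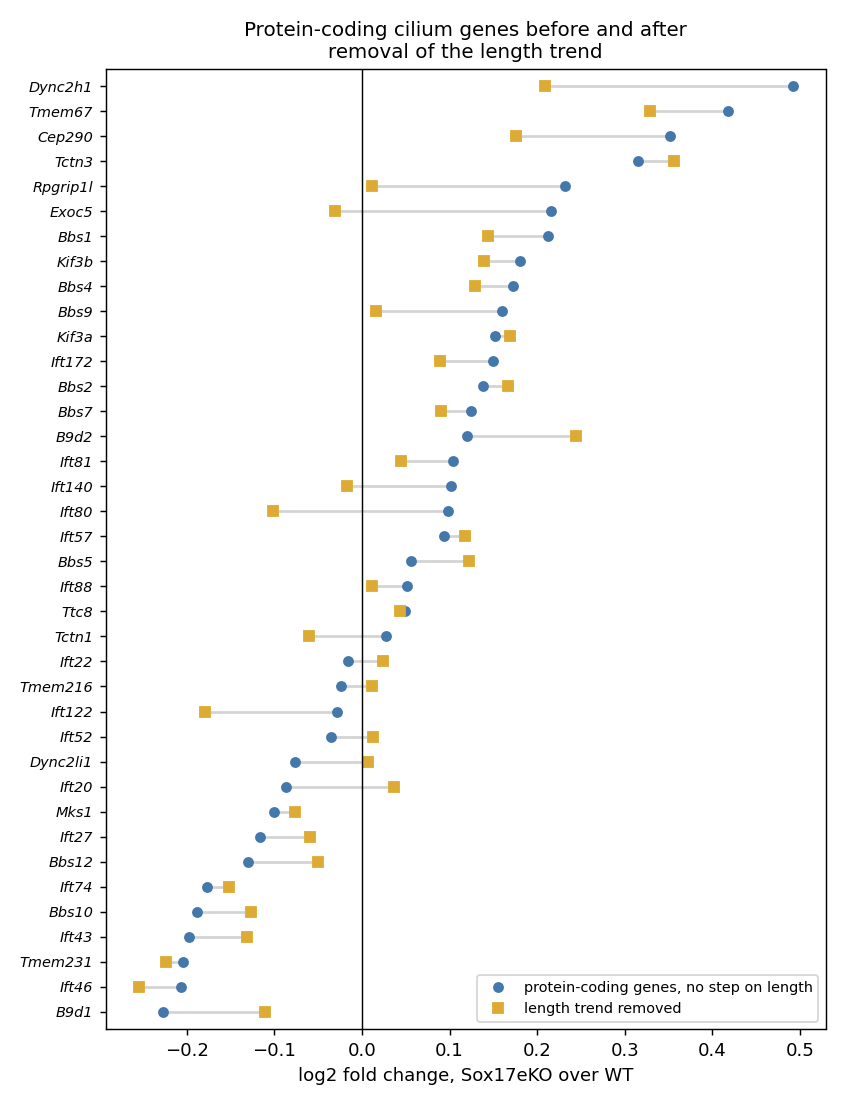
Log2 fold change, Sox17eKO over WT (horizontal axis), of protein-coding cilium genes in a fit on protein-coding genes (circles) and after removal of the length trend (squares). Dync2h1 moves from 0.49 to 0.21 and Exoc5 from 0.22 to -0.03, while Tctn3 and Ift46 move slightly away from 0.

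Genes that work with these 40 were read from lists of other cilium genes, which together gave 119 genes tested. Of these, 5 rose and 1 fell (5.04%, beside 5.35% of all genes), and the median log2 fold change was 0.03. Sdccag8, a centrosomal gene mutated in a form of Bardet-Biedl syndrome, rose from 13.9 ± 2.63 to 20.0 ± 1.30 CPM (SD, n = 2; log2 fold change 0.50, edgeR adjusted p = 0.0431). Exoc1, another exocyst subunit, rose from 46.2 ± 1.95 to 60.6 ± 0.667 CPM (0.39, edgeR adjusted p = 0.0122), and was the 1 called of 8 further exocyst genes. Ccp110, a centriole cap protein that blocks ciliogenesis until it is removed, rose (0.35, edgeR adjusted p = 0.0311), as the 1 of 22 basal body genes tested. Unc119, a carrier of lipid-modified ciliary proteins, fell from 26.8 ± 0.442 to 20.1 ± 1.03 CPM (-0.41, edgeR adjusted p = 0.0434), as the 1 of 15 ciliary membrane genes tested. Of 7 RFX and other ciliary transcription factor genes tested, Rfx3, a regulator of ciliogenesis, rose from 23.4 ± 1.24 to 30.7 ± 0.313 CPM (0.39, edgeR adjusted p = 0.0434), and Rfx7 rose as well (0.34, edgeR adjusted p = 0.0492). None of these 6 calls held without WT replicate 2 or without Sox17eKO replicate 1, although some log2 fold changes stayed close to those above (Exoc1 0.35 and 0.38, Rfx3 0.34 and 0.38, Unc119 -0.39 and -0.36). None held after removal of the length trend either, where the log2 fold changes were 0.44 for Sdccag8, 0.24 for Exoc1, 0.27 for Ccp110, -0.31 for Unc119, 0.18 for Rfx3 and 0.12 for Rfx7. The Ccp110, Unc119 and Rfx3 calls were also lost without WT replicate 1, with log2 fold changes no smaller in size than above (0.36, -0.43 and 0.45), and the Unc119, Rfx3 and Rfx7 calls without Sox17eKO replicate 2.

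Over all genes tested in edgeR, 5.35% were called and 20.9% had an unadjusted p under 0.05, the shares to set beside the list counts that follow. No gene passed among 15 further IFT and motor genes (0 at an unadjusted p under 0.05 in edgeR) or 15 further transition zone and inversin genes (1 at an unadjusted p under 0.05). The smallest p values there belonged to Ttc21b (log2 fold change 0.22) and Kifap3 (-0.14), and to Cc2d2a (0.25) and Ahi1 (0.26). Of 9 cilium disassembly genes none passed (1 at an unadjusted p under 0.05), with Ndel1 at -0.19 and Hdac6 at -0.14. The hedgehog pathway, which vertebrates route through the cilium, had no called gene among 15 tested in edgeR (4 at an unadjusted p under 0.05) and a median log2 fold change of 0.01. Ptch1, the hedgehog receptor and a transcriptional target of the pathway, was at 22.9 ± 1.33 CPM in WT and 29.5 ± 3.11 CPM in Sox17eKO (SD, n = 2; log2 fold change 0.36, 95% interval 0.12 to 0.60, edgeR adjusted p = 0.0739). Ptch1 has 14185 bp of exons, and protein-coding genes of 6416 to 17988 bp had a median log2 fold change of 0.11. Other pathway genes went the other way, such as Smo (-0.13) and Gli1 (-0.23, with 7 to 17 reads per library). The coreceptor gene Cdon had 0.24 (edgeR adjusted p = 0.0953). The ligand genes Shh and Ihh had 1 and 6 reads over the 4 libraries and were not tested. Of 18 motile cilium genes, 10 had too few reads to be tested and 2 were not found by symbol, and Foxj1, the master regulator of motile cilia, had 19 reads over the 4 libraries. The 6 that were tested did not pass (0 at an unadjusted p under 0.05), with Ccdc39 at 0.18 and Ccdc40 at 0.21.

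Summed cell type marker levels differed between the genotypes for several lists, while most single markers did not pass. Of all genes tested, 5.35% were called. Summed over 9 cushion mesenchyme markers the level was 5057 and 5897 CPM in WT and 6176 and 6428 CPM in Sox17eKO, with 2 of 9 rising (Vcan and Pdgfra), 1 falling (Dcn) and a median log2 fold change of -0.07, opposite in sign to the sum. Summed over 9 erythroid markers it was 2450 and 3288 CPM in WT and 1597 and 2162 CPM in Sox17eKO, with 1 of 9 falling. Summed over 8 epicardial markers it was 386 and 418 CPM in WT and 320 and 357 CPM in Sox17eKO, with 2 of 8 falling. The 10 endothelial markers summed to 1049 and 1086 CPM in WT and 969 and 1033 CPM in Sox17eKO, with 1 of 10 falling. The 7 smooth muscle markers summed to 1976 and 2018 CPM in WT and 1790 and 1835 CPM in Sox17eKO, with 1 of 7 rising and 1 falling. The sums of 10 cardiomyocyte markers overlapped between the genotypes, with 1 of 10 rising. An unadjusted p under 0.05 in edgeR was found for 6 of 9 cushion mesenchyme and 6 of 10 cardiomyocyte markers, beside 20.9% of all genes. It was found for 3 of 7 smooth muscle, 3 of 8 epicardial, 2 of 9 erythroid and 2 of 10 endothelial markers. The part of these shifts in the Dync2h1 difference was not tested.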

How the data were processed

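RNA was measured in 4 outflow tract libraries, 2 WT and 2 Sox17eKO. The authors deposited unnormalized read counts for each Ensembl gene. The submitters' processing notes name TopHat2, HTSeq and mm10. The strand setting and annotation release are not given in the sources used here. Per the labels' protocols, libraries were strand-specific and made from total RNA. The 5 summary lines that HTSeq appends entered neither library sizes nor tests. Symbols, positions and exonic lengths came from GENCODE M21 (45143 of 45706 genes matched), and promoter windows from RefSeq.

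Genotypes were compared by the quasi-likelihood test of edgeR 4.0.16 in R 4.3.3 (robust, TMM, filterByExpr, genotype as the only term), with adjusted p under 0.05 as a call. Standard errors were derived from each log2 fold change and its F statistic, and the 95% intervals from them. Replicates differed by more than counting noise (chi-square per degree of freedom 5.16 and 6.51). Alternatives were DESeq2 1.42.0, limma-voom 3.58.1, other scalings and filters, a non-robust fit, a replicate block, each library left out, and, on protein-coding genes, trends on length or on GC of the longest transcript removed (mgcv 1.9.3). The scripts were tested on simulated data. Values of 1 gene of the 40, counted in the totals, and 1 promoter match are not reported here. The genes and lists were chosen with earlier results of these data known. Genes given in full are called genes, the 6 smallest p values among the 40, the 3 highest levels per length and the largest difference of each role. From each related list they are called genes or, where there was none, the 2 smallest p values. Others named were chosen after their values were seen.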

Additional observations from a re-analysis of the deposited data

How the results depend on the processing

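Of the 40 cilium genes, 1 was called as reported and with DESeq2, limma-voom, other scalings, a filter at a mean of 1 CPM, a non-robust fit, protein-coding genes only and a GC trend removed. The count was 2 with no filter on low counts and 2 with the replicate number as a block (Dync2h1 and Cep290 in both, edgeR adjusted p = 0.0453 and 0.0416 for Cep290), 0 with the length trend removed, and 0 to 3 with 1 library left out (0 without WT replicate 2, and 3 without WT replicate 1, where Cep290 and Tmem67 joined). The median log2 fold change of the cilium genes was 0.016 with the length trend removed, against 0.08, 0.026 with the GC trend removed, 0.109 with library size scaling only, and 0.026 to 0.072 with 1 library left out. Exoc5 turned from 0.21 to -0.031 with the length trend removed. Over all genes, 886 were called, against 409 with DESeq2, 1364 with no filter, 1684 with the replicate block, 151 with the length trend removed, and 192 to 1219 with 1 library left out (192 without WT replicate 2 and 472 without Sox17eKO replicate 1). Higher and lower calls were 684 and 202, 769 and 111 with library size scaling only, 613 and 484 with the GC trend removed, 79 and 72 with the length trend removed, and 756 and 463 without WT replicate 1, so the excess of higher calls depends on the setting. Of the 119 related genes 6 were called, against 1 with DESeq2, 2 with the non-robust fit, 13 with the replicate block, 0 with the length trend removed and 0 to 7 with 1 library left out. Deviations of same-numbered pools from their genotype's mean had r = -0.03 across genes tested and -0.24 over the cilium genes. With 2 pools per genotype, these values cannot tell whether same-numbered pools shared a litter or dissection day. The alternatives for related genes were chosen after seeing the data. The causes of these shifts were not tested, except that with DESeq2 fewer genes received an adjusted p (5326). A group left with 1 pool is assumed to vary like the other group. With 24 to 77 reads for B9d2, depth limits the lowest genes most.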
